A study of Mus musculus with 2 samples.

Results

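The let-7 family and its close relative Mir98 were described in the intestine of mouse embryos from 10 genes of 1973 with a row in the count tables. The 10 genes were chosen by annotation: their Ensembl identifiers map to a let-7 gene or to Mir98. Of these, 5 carry a mature microRNA found at a single locus (Mirlet7g, Mirlet7i, Mirlet7d, Mir98 and Mirlet7b), and 5 carry one that has an identical copy at another locus (Mirlet7f-2, Mirlet7a-1, Mirlet7a-2, Mirlet7c-1 and Mirlet7c-2). The tissue was whole intestine of healthy B6NCrl mice at embryonic day 16.5, pooled from male and female embryos, with no mutation or treatment named in the labels. The libraries of replicate 2 (a pool of 41 embryos) and replicate 1 (a pool whose number of embryos is not given in the labels) are biological replicates of 1 group. With 1 condition, genes of the family are compared with each other and with the rest of the table, and the replicates with each other. In a pooled tissue, fewer cells of a type and less RNA per cell cannot be told apart.

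Replicate 2 held 5680764 counts on the strand of a miRNA gene and replicate 1 held 4261976. Levels are given in CPM, the counts of a gene divided by the library's total of such counts and scaled to a common total. They are given for each library or as mean ± SD of both libraries (n = 2). Words such as abundant refer to these counts, and how counts relate to numbers of molecules was not tested. All let-7 mature sequences have the same length, so no correction for length was applied. Intervals are exact Clopper-Pearson 95% intervals and cover counting error only, since PCR copies could not be told apart. The label of the tissue was checked with marker miRNAs. All 10 epithelial markers had counts and together held 12.3% of the counts in replicate 2 and 10.8% in replicate 1. The liver marker Mir122 held 0.0448% in replicate 2 and 0.0994% in replicate 1, and the 3 pancreas markers held 0.000475% in replicate 2 and 0.000164% in replicate 1. Neuronal markers held 0.167% in replicate 2 and 0.143% in replicate 1, with Mir124a-2, Mir124a-3 and Mir9-2 at 0 in both. Markers of skeletal and heart muscle held 0.0120% in replicate 2 and 0.00981% in replicate 1, with Mir133a-1 and Mir133a-2 at 0 in both. Each of these 5 genes makes a microRNA also made from other loci, whose shared reads are in no gene count. How far a 0 there bears on the tissue was not tested. Blood markers held 0.121% in replicate 2 and 0.140% in replicate 1, and the endothelial Mir126a held 3.36% in replicate 2 and 3.08% in replicate 1.

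The let-7 microRNA was found in the worm Caenorhabditis elegans as a gene that times the step from larval to adult cell fates, and its sequence is nearly unchanged in mammals. A microRNA finds its messenger RNAs mainly through its seed, bases 2 to 8, so genes with 1 seed form a family that represses largely shared targets. Known targets of let-7 in mammals include Hmga2, Lin28a, Lin28b and Igf2bp1, growth-promoting genes of the embryo, and let-7 accumulates as tissues mature. The RNA-binding proteins Lin28a and Lin28b hold let-7 back in early cells by binding the loop of its precursor and blocking its cutting. In the intestine the Lin28 and let-7 pair is known for its part in epithelial growth.

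The mature sequences below show how alike the family is and where it differs. They come from RefSeq (GRCm38.p6), which matched all 10 genes, and are written 5′ to 3′ with the seed in capitals.
let-7g (Mirlet7g): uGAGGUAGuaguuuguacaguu
let-7i (Mirlet7i): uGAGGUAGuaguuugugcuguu
let-7d (Mirlet7d): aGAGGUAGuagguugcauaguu
miR-98 (Mir98): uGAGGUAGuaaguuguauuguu
let-7b (Mirlet7b): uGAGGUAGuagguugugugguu
let-7f (Mirlet7f-2 and Mirlet7f-1): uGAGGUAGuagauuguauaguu
let-7a (Mirlet7a-1 and Mirlet7a-2): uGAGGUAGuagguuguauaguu
let-7c (Mirlet7c-1 and Mirlet7c-2): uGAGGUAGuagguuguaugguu
let-7e (Mirlet7e): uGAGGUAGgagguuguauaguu

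All 9 sequences share the seed, and every difference lies outside it. Counted from 1 at the 5′ end and against let-7a, let-7c differs by A19G, let-7f by G12A and let-7e by U9G. The next step away has 2 differences: let-7b has A17G and A19G, miR-98 has G11A and A19U, let-7g has G12U and U18C, and let-7d has U1A and U16C. The farthest is let-7i, with G12U, A17G, U18C and A19U. Thus let-7g and let-7i, which lead the levels below, are the pair that shares G12U and U18C. The first base differs in let-7d alone. Over 36 pairs of sequences the number of differences ranged from 1 to 6, and 4 pairs differed by 1 base, so a read with a single mismatch can match more than 1 family member. How many mismatches the authors allowed is not given in the sources used here. Besides the loci above, only Mir1961 and Mir7k of the annotated loci carry this seed. Both have a row, and both had 0 counts in both libraries. A fixed limit of 3 counts, used here instead of an exact interval, is 0.528 CPM in replicate 2 and 0.704 CPM in replicate 1.

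The family was among the most abundant in the libraries, and nearly all of its counts came from genes with a unique mature sequence. The 10 genes together held 14.6% of the counts in replicate 2 (interval 14.5% to 14.6%) and 13.2% in replicate 1 (interval 13.1% to 13.2%). The 5 genes with a unique sequence held 14.3% in replicate 2 and 12.9% in replicate 1. The 5 genes with identical copies held 0.315% in replicate 2 and 0.303% in replicate 1. Mean levels ran from 61466 CPM for Mirlet7g to 86.2 CPM for Mirlet7c-1.

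Mirlet7g (chromosome 9, 106178840 to 106178927 on mm10, plus strand) lies in an intron of Wdr82, a gene for a subunit of histone methyltransferase complexes. It had 377294 counts, or 66416 CPM, in replicate 2 and 240873 counts, or 56517 CPM, in replicate 1, and ranked 2 among all genes in both. Mirlet7i (chromosome 10, 122985640 to 122985724, minus strand) lies in an exon of the pseudogene D630033A02Rik. It had 48328 CPM in replicate 2 and 45748 CPM in replicate 1, with ranks of 3 in replicate 2 and 4 in replicate 1. Mirlet7g stood above Mirlet7i in both libraries, by 1.37 times in replicate 2 and 1.24 times in replicate 1, and no value of one gene overlapped those of the other.

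Mirlet7d (chromosome 13, 48536012 to 48536114, minus strand) lies in an exon of the long noncoding RNA 6720427I07Rik. It had 15029 CPM in replicate 2 and 14375 CPM in replicate 1 and ranked 20 in both. Mir98 (chromosome X, 151913214 to 151913321, plus strand) lies in an intron of Huwe1, a gene for a ubiquitin ligase. It had 10075 CPM in replicate 2 and 9269 CPM in replicate 1, with ranks of 23 in replicate 2 and 25 in replicate 1. Both stood clear of their neighbours in the order. Mirlet7i had 3.20 ± 0.0234 times the counts of Mirlet7d, which had 1.52 ± 0.0417 times those of Mir98 (n = 2 each).

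Mirlet7b (chromosome 15, 85707319 to 85707403, plus strand) lies in an exon of the long noncoding RNA Lncppara. It was the lowest of the genes with a unique sequence, at 2706 CPM in replicate 2 and 2848 CPM in replicate 1. Mirlet7f-2 (chromosome X, 151912346 to 151912428, plus strand), in the same gene Huwe1 as Mir98, came next at 2612 CPM in replicate 2 and 2464 CPM in replicate 1. This was the narrowest gap among the 6 most abundant members, with a ratio of Mirlet7b to Mirlet7f-2 of 1.04 in replicate 2 and 1.16 in replicate 1. The intervals of the pair did not overlap in either library, but the gap between the ranges of the replicates was only 94.0 CPM.

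The 4 lowest genes formed pairs that the data barely separate. Mirlet7a-1 (chromosome 13, 48538179 to 48538272, minus strand) had 1038 counts, or 183 CPM, in replicate 2 and 888 counts, or 208 CPM, in replicate 1. Mirlet7a-2 (chromosome 9, 41536716 to 41536811, plus strand) had 1033 counts, or 182 CPM, in replicate 2 and 716 counts, or 168 CPM, in replicate 1. These genes carry the same mature sequence, and their intervals overlapped in replicate 2. Mirlet7c-2 (chromosome 15, 85706603 to 85706697, plus strand) had 85.6 CPM in replicate 2 and 102 CPM in replicate 1. Mirlet7c-1 (chromosome 16, 77599657 to 77599750, plus strand) had 88.4 CPM in replicate 2 and 84.0 CPM in replicate 1. Their order differed between the libraries and their intervals overlapped in both, so neither let-7c gene can be placed above the other. Reads on the opposite strand were few at all 10 loci, at most 13 in replicate 2 and 10 in replicate 1, both at Mirlet7b.

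**Figure D1:**
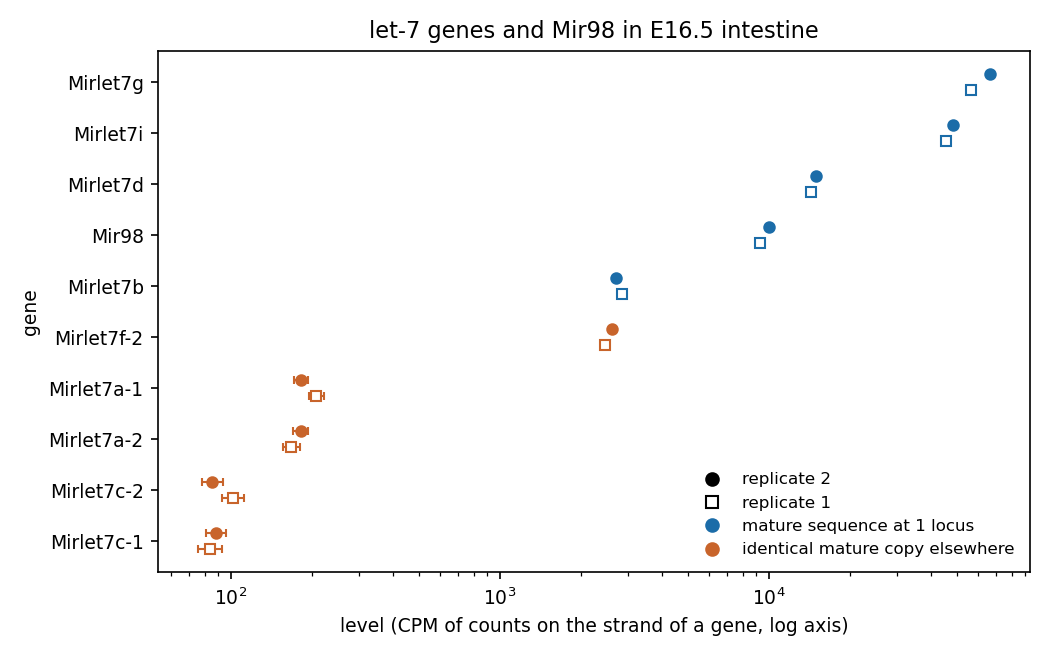
Level of each gene in CPM of the counts on the strand of a gene (log axis), with filled circles for replicate 2, open squares for replicate 1 and bars for exact 95% intervals of counting error, which are narrower than the symbols for the upper 6 genes. Genes with a unique mature sequence (blue) lie at 2706 CPM or above, and those with an identical copy elsewhere (orange) lie at 2612 CPM or below.

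Within the family the composition was alike in both libraries, with a small shift toward Mirlet7g in replicate 2. A share of the family's own counts does not depend on how the libraries are scaled to each other. Mirlet7g held 45.6% of the 10 genes' counts in replicate 2 and 42.9% in replicate 1, a difference of 2.70 percentage points, and its intervals did not overlap. Mirlet7i held 33.2% in replicate 2 and 34.7% in replicate 1. Mirlet7d held 10.3% in replicate 2 and 10.9% in replicate 1. Mir98 held 6.91% in replicate 2 and 7.03% in replicate 1, and here the intervals overlapped. Mirlet7b held 1.86% in replicate 2 and 2.16% in replicate 1. Thus Mirlet7g alone took a larger share in replicate 2, while the shares of the other 9 genes were lower there by up to 1.55 points, with overlapping intervals for Mir98, Mirlet7a-2 and Mirlet7c-1. With a pair of libraries, no test sets these differences against the spread between pools.

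**Figure D2:**
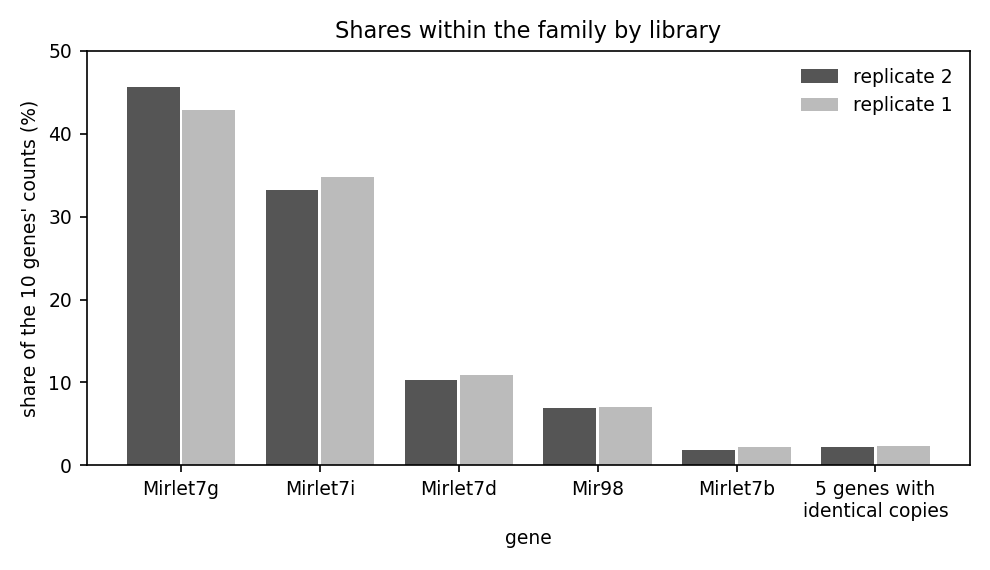
Share of the 10 genes' summed counts held by each gene with a unique mature sequence, and by the 5 genes with identical copies together (percent, axis from 0), with dark bars for replicate 2 and light bars for replicate 1. Mirlet7g stands at 45.6% in replicate 2 and 42.9% in replicate 1, and every other bar is lower in replicate 2.

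Genes with an identical copy were counted far below the others. A gene was put in this class when its full mature sequence was found in more than 1 of 1005 RefSeq hairpins. Summed counts of the genes with a unique sequence were 45.2 times those of the genes with copies in replicate 2 and 42.5 times in replicate 1. The median of the 5 unique genes was 14702 CPM, and that of the 5 genes with copies was 175 CPM. The gap was smaller over all genes with at least 10 counts in both libraries, the let-7 genes included. Their median was 181 CPM for 253 genes with unique mature sequences. It was 51.2 CPM for 49 genes with a mature sequence held by another hairpin. No gene count includes multimapped reads, which made up 25.7% of all reads in replicate 2 and 26.2% in replicate 1. They outnumbered the counts of the 5 genes with copies by 156 times in replicate 2 and 178 times in replicate 1. How many of them are let-7 reads was not tested, so the levels of let-7a, let-7c and let-7f in the tissue are not given by these rows.

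Mirlet7f-2 stood apart among the copies. It held 82.9% of the copies' counts in replicate 2 and 81.4% in replicate 1, and it was 13.1 ± 1.75 times as abundant as Mirlet7a-1, the next of them (n = 2). The stretches below show the mature sequence of each copy with the 4 bases that follow it in the hairpin in capitals, which decide up to where a read is the same at both loci.
let-7f at Mirlet7f-2: ugagguaguagauuguauaguuUUAG
let-7f at Mirlet7f-1: ugagguaguagauuguauaguuGUGG
let-7a at Mirlet7a-1: ugagguaguagguuguauaguuUUAG
let-7a at Mirlet7a-2: ugagguaguagguuguauaguuUAGA
let-7c at Mirlet7c-1: ugagguaguagguuguaugguuUAGA
let-7c at Mirlet7c-2: ugagguaguagguuguaugguuUUGG

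The let-7f loci differ from the first base after the mature sequence, as the capitals show. The shared stretch was therefore 22 bases for let-7f. The let-7a loci share 1 more base, as do the let-7c loci, for a stretch of 23 bases. A read that follows the hairpin 1 base past the mature sequence thus matches a single let-7f locus, but both loci of let-7a or of let-7c. The tables give no read lengths, so the part of such reads in the count of Mirlet7f-2 was not tested. Mirlet7f-1 has the same shared stretch but no row. Opposite-strand reads at its locus came to 167 CPM in replicate 2 and 165 CPM in replicate 1. The opposite arms of the hairpins (3p) differ in the same respect: the 3p sequence was found in 1 hairpin each for Mirlet7f-2, Mirlet7a-2 and Mirlet7c-1, whereas Mirlet7a-1 and Mirlet7c-2 share one. The tables do not separate the arms. The first 18 bases of let-7a and let-7c are the same, so reads of that length match 4 hairpins, while the 5 unique genes are told apart within 17 bases or fewer.

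The loops of the precursors differed in the motif that Lin28 proteins are known to bind. The letters GGAG were searched on the RNA strand between the annotated arms and are in capitals. The loops of the 4 let-7 genes with a row and a unique mature sequence are shown, as examples with and without it.
Mirlet7g loop: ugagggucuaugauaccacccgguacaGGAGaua
Mirlet7i loop: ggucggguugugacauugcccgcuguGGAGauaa
Mirlet7d loop: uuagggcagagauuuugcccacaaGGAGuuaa
Mirlet7b loop: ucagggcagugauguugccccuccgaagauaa

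GGAG was present in the loops of 7 of the 9 let-7 genes with a row, against 52 of 644 loops (8.07%) of all RefSeq hairpins with both arms annotated, which include the let-7 loops. It was absent from Mirlet7b and Mirlet7c-2. The loop of Mir98 was not used here, so the motif is not set against the levels. Neither Lin28 binding nor Lin28 messenger RNA was measured here. A motif match is not a binding site, and its absence says only that these letters are not in this stretch.

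Members of 1 cluster differed widely in level. Genes on 1 strand less than 10 kb apart were grouped, which put 8 of the 10 genes into 5 clusters and left Mirlet7g and Mirlet7i alone. On chromosome 13, Mirlet7d was 82.3 times as abundant as Mirlet7a-1 in replicate 2 and 69.0 times in replicate 1, although both lie in exons of the same long noncoding RNA with 2064 bases between them. On chromosome 15, Mirlet7b was 31.6 times as abundant as Mirlet7c-2 in replicate 2 and 27.9 times in replicate 1, with 621 bases between them in Lncppara. On chromosome X the gap was far smaller: Mir98 was 3.86 times as abundant as Mirlet7f-2 in replicate 2 and 3.76 times in replicate 1, with 785 bases between them. In each of these pairs the lower gene is the one with an identical copy elsewhere, whose reads that match more than 1 locus are in no gene count. The ratios are therefore of counts, not of molecules in the tissue.

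**Figure D3:**
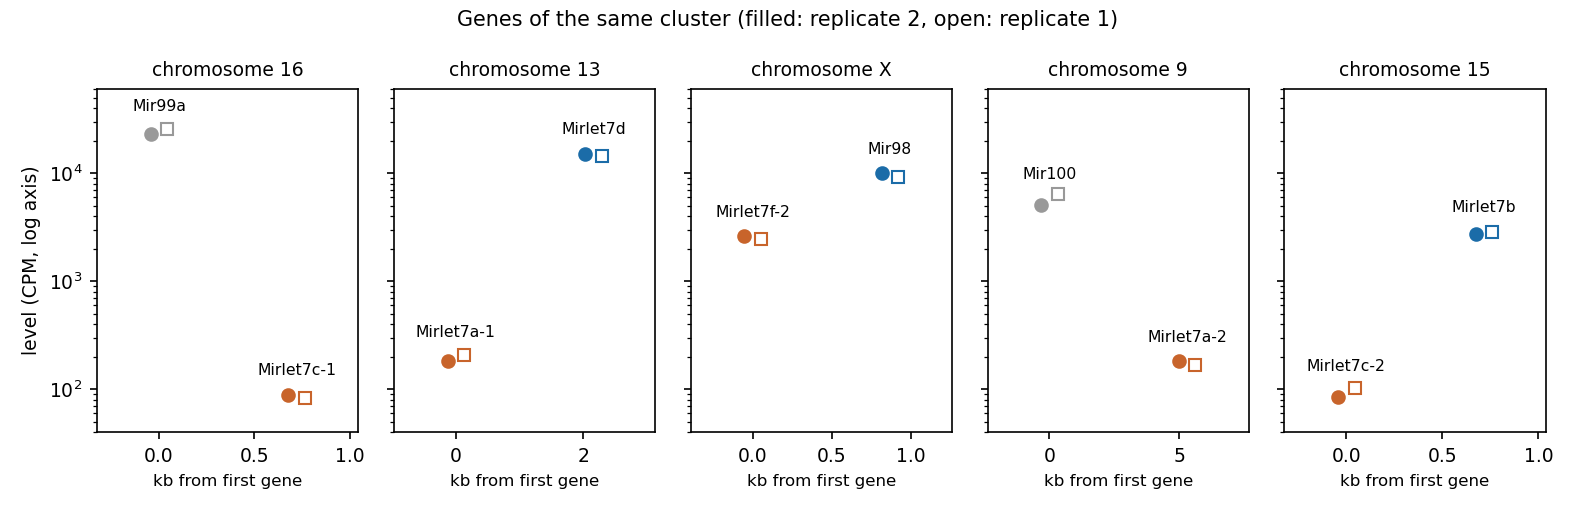
Level in CPM (log axis) of the genes of each cluster against distance from its first gene in kb along the gene strand, with filled circles for replicate 2 (drawn left of the position) and open squares for replicate 1 (right of it). Blue marks a unique mature sequence, orange an identical copy elsewhere and grey a neighbour outside the family, and in all 5 clusters the orange gene is the lower.

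The partners of let-7 in its mixed clusters, the miR-99, miR-100 and miR-125 genes, are often made from the same primary transcripts. MiR-125 is the mammalian relative of lin-4, the other founding microRNA of the worm's timing pathway. All 6 partner genes had counts, and together they held 4.01% of the counts in replicate 2 and 4.80% in replicate 1. Mir99a had 259 times the counts of its neighbour Mirlet7c-1 in replicate 2 and 304 times in replicate 1. Both lie within the transcript Mir99ahg. Mir100 had 27.7 times the counts of its neighbour Mirlet7a-2 in replicate 2 and 38.1 times in replicate 1. Mirlet7c-1 and Mirlet7a-2 have an identical copy elsewhere, and their shared reads are in no gene count. These ratios too are therefore of counts, not of molecules in the tissue. Mir125b-1 had 323 CPM in replicate 2 and 396 CPM in replicate 1, and Mir125b-2 had 274 CPM in replicate 2 and 293 CPM in replicate 1. These genes are loci of the same microRNA, miR-125b, and stood closer to the let-7a and let-7c rows. At the cluster of Mirlet7e, which has no row, Mir99b had 9278 CPM in replicate 2 and 11999 CPM in replicate 1, and Mir125a had 2299 CPM in replicate 2 and 3435 CPM in replicate 1.

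The replicates were compared gene by gene with an exact binomial test, two-sided and conditional on the summed count, over 364 genes with at least 20 counts summed, scaled by TMM (trimmed mean of M-values) and with Benjamini-Hochberg adjustment at 0.05. It sets a difference against counting error alone, so at these counts small ratios pass, and it compares 2 libraries rather than conditions. Most of the family was slightly higher in replicate 2. All 10 genes passed the minimum, and 7 were called higher in replicate 2, where 24.5% of all genes tested were, and none was called higher in replicate 1 (0 at an unadjusted p under 0.05 too), where 27.5% were. The median log2 ratio of replicate 2 to replicate 1 was 0.21 over the 10 genes and -0.02 over all 364. No member reached 1.5-fold, which 40 of the 364 genes did.

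The ratio was largest for Mirlet7g, with a log2 ratio of 0.36 and a counting error of 0.00376, and 36 of the 364 genes had a higher one. Its adjusted p in the exact test was too small for double precision, as was that of Mirlet7i, whose log2 ratio was 0.21. The exact test gave Mir98 a log2 ratio of 0.25 with an adjusted p of 1.96e-154, Mirlet7f-2 one of 0.21 with 1.60e-30 and Mirlet7d one of 0.19 with 1.39e-141. Mirlet7a-2 passed the exact test with 0.24 ± 0.0701 (counting error, adjusted p 0.00141) and Mirlet7b with 0.06 ± 0.0175 (adjusted p 0.00353), the smallest ratio of the 7. Those that did not pass were Mirlet7c-1 at 0.20 (adjusted p 0.0786 in the exact test), Mirlet7a-1 at -0.06 (0.472) and Mirlet7c-2 at -0.13 (0.281). The genes that did not pass have an identical copy elsewhere, as do Mirlet7f-2 and Mirlet7a-2, which passed. They are also among the let-7a and let-7c rows, which have the fewest counts of the family.

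The scaling set part of these calls. TMM raised every log2 ratio by 0.13 relative to total counts. With total counts 5 of the 10 genes were called higher in replicate 2, against 12.6% of all genes tested, and 3 were called higher in replicate 1, against 45.1%. Mirlet7b changed sign, to -0.07 on the log2 scale (exact test, adjusted p 7.68e-05), and Mirlet7a-1 (-0.19) and Mirlet7c-2 (-0.25) passed as lower in replicate 2. Mirlet7g, Mirlet7i, Mirlet7d, Mir98 and Mirlet7f-2 were called higher in replicate 2 under both scalings. As CPM over total counts, the SD of the replicates was 3.15% to 12.4% of the mean across the 10 genes, and for 8 of them it was below the median of the genes tested, 11.4%.

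Most of the partners went the other way, by unlike amounts. Of the 6 miR-99, miR-100 and miR-125 genes, 5 were called higher in replicate 1, where 27.5% of all genes tested were, and Mir125b-2 did not pass (log2 ratio 0.03). None was called higher in replicate 2, also at an unadjusted p under 0.05 (0 genes), and with total counts, where 45.1% of all genes tested were called higher in replicate 1, the counts of calls were again 5 and 0. The log2 ratio with TMM was -0.45 for Mir125a, -0.24 for Mir99b, -0.22 for Mir100 and -0.16 for Mir125b-1. For Mir99a, the most abundant partner with a mean of 24178 CPM, it was only -0.03, near the median of all genes tested (-0.02). In a ratio that needs no scaling, the 10 let-7 genes held 3.64 times the counts of the 6 partners in replicate 2 and 2.74 times in replicate 1. Whether the sets differ beyond the spread between pools was not tested, since there are only 2 libraries.

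Marker miRNAs of several cell types also differed between the libraries. As a share of total counts, the let-7 genes were 1.11 times as high in replicate 2 as in replicate 1. The same ratio was 1.14 for the 10 epithelial markers, 1.09 for the endothelial Mir126a, 1.17 for the neuronal markers and 1.22 for those of skeletal and heart muscle. The neuronal ratio rested mostly on 1 gene, Mir137, with a mean of 1542 CPM and a log2 ratio of 0.36 with TMM. The other neuronal marker tested, Mir9-3, went the other way at -0.56, with a mean of 5.31 CPM, and was not called. The ratio of shares was 2.89 for the 3 pancreas markers, from 27 counts in replicate 2 and 7 in replicate 1. It was 0.958 for smooth muscle and mesenchyme, 0.863 for blood and 0.451 for the liver marker Mir122. Markers of more than 1 cell type thus differed in each direction. TMM raised every log2 ratio by 0.13 relative to total counts, so the direction of a ratio near 1 depends on the scaling. A row was present for 6 of the 7 neuronal markers, 3 of the 4 blood markers and 7 of the 8 skeletal and heart muscle markers. With total counts 7 of the 10 epithelial markers were called higher in replicate 2, against 12.6% of all genes tested, and 2 higher in replicate 1, against 45.1%. With TMM these counts were 9, against 24.5%, and 1, against 27.5%. The ratio of the let-7 genes to the 10 epithelial markers was 1.18 in replicate 2 and 1.22 in replicate 1. The 5 smooth muscle and mesenchyme markers held 17.7% of the counts in replicate 2 and 18.5% in replicate 1. With TMM 3 of them were called higher in replicate 1, against 27.5%, and 1, Mir143, higher in replicate 2, against 24.5%. With total counts 4 were called higher in replicate 1, against 45.1%, and 0 higher in replicate 2, against 12.6%. Mir143 had a log2 ratio of 0.08 with TMM and a mean of 173802 CPM, most of this set. The part of tissue composition in the difference of the let-7 genes was not tested.

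**Figure D4:**
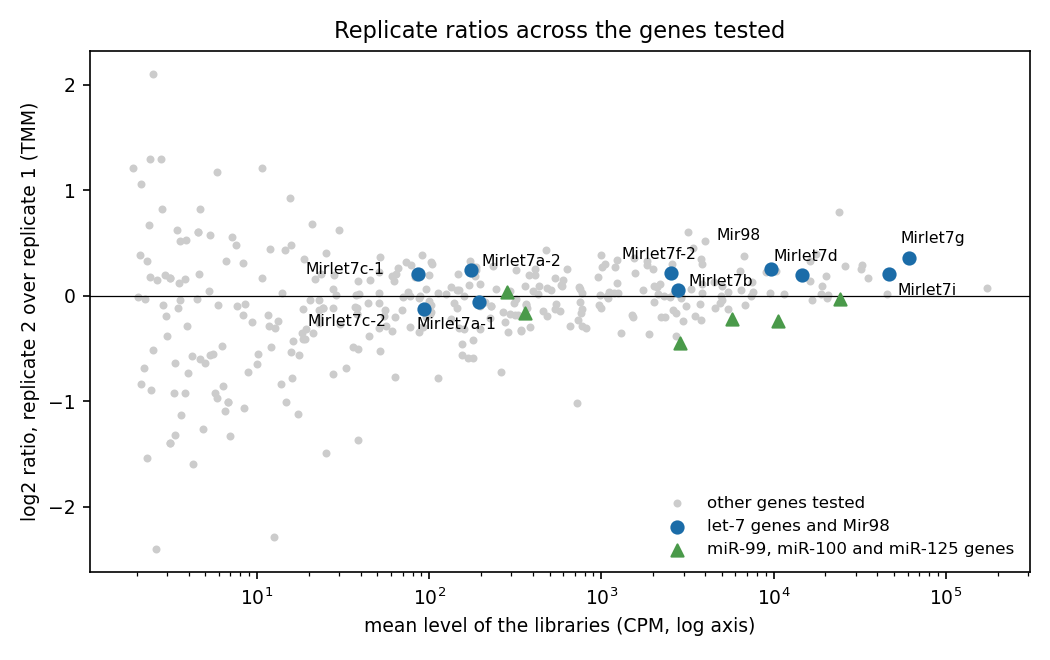
Log2 ratio of replicate 2 over replicate 1 after TMM scaling against the mean level in CPM (log axis) for the 364 genes tested, with let-7 genes and Mir98 as blue circles, the miR-99, miR-100 and miR-125 genes as green triangles and all others in grey. Of the blue points 8 lie above 0, between 0.06 for Mirlet7b and 0.36 for Mirlet7g, and of the 6 triangles 1 lies above 0, at 0.03.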

How the data were processed

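MicroRNA-seq libraries of total RNA from E16.5 intestine were made for 2 biological replicates, which form 1 group. The deposited values are raw counts of reads for each miRNA gene on mm10 (GENCODE M4, per the readme files). The aligner and the counter are named in no source used here. A table has 3 count columns without names, told apart by their values (both strands, gene strand, opposite strand), and 4 rows that name no gene. In replicates 2 and 1 these took 17.2% and 19.5% of reads as unmapped, 25.7% and 26.2% as mapped to several loci, 2.88% and 3.69% as outside genes, and 0 as ambiguous.

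Gene-strand counts were scaled by their sum. Names and coordinates came from GENCODE M21 (1894 of 1973 identifiers matched), sequences from RefSeq (GRCm38.p6). No genome was searched for copies. The mature sequence of Mirlet7a-2 was found by exact match of let-7a in its hairpin. With 1 group, edgeR's quasi-likelihood test has no contrast. Instead, genes reaching 20 counts over both libraries were compared by an exact binomial test with TMM sizes (edgeR 4.0.16), Benjamini-Hochberg adjustment over all 364 genes and a prior of 0.5 counts in ratios. The test was checked on counts simulated with counting error only, so the check does not cover spread between pools. The genes named are the 10 members, genes less than 10 kb from one on its strand, genes with the same seed, the let-7 loci without a row, the partner list and the markers. The members and lists were chosen with earlier results of these data known. Alternatives used total counts, DESeq2 1.42.0 size factors, other count minimums (1 and 200), a 1.5-fold minimum, unstranded counts, other totals, the first 18 bases and each replicate alone. R 4.3.3, Python 3.11.15, scipy 1.17.1, pandas 2.3.3 and matplotlib 3.10.9 were used. The loop of Mir98 is not reported here.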

Additional observations from a re-analysis of the deposited data

Results flagged for a closer look

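Reads appeared in the opposite-strand column, outside the levels above, at the let-7 loci that have no row. At the row Gm25927 (chromosome 17, 17830343 to 17830459, minus strand) there were 26106 reads in replicate 2 and 21203 in replicate 1 on the opposite strand, above the limit of 3 counts, and 0 on its own strand. RefSeq places Mirlet7e on the plus strand within it (17830352 to 17830444), the strand of these reads. They amount to 4596 CPM in replicate 2 and 4975 CPM in replicate 1, which would rank 41 and lie between Mir98 and Mirlet7b in the family. The mature sequence of let-7e was found in 1 hairpin. At the row Gm24111 (chromosome 13, 48537825 to 48537921, plus strand) there were 949 such reads in replicate 2 and 703 in replicate 1, against 3 and 1 on its own strand, at the locus of Mirlet7f-1 on the minus strand. They amount to 167 CPM in replicate 2 and 165 CPM in replicate 1, and Mirlet7f-2 had 15.6 times as many counts in replicate 2 and 14.9 times in replicate 1. Those levels stand beside Mirlet7a-1 and Mirlet7a-2, which also have an identical mature copy. Whether each of these reads comes from the let-7 gene was not tested.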

How the results depend on the processing

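The share of the 10 genes in the counts (13.9% ± 0.984, n = 2) moved to 16.8% without the most abundant gene in the total and to 9.17% with reads that mapped to several loci in the total, and stayed within 1 SD with unstranded counts and with the reads at Mirlet7e and Mirlet7f-1 added (14.3%, chosen after seeing the data). Either replicate alone gave 13.2% to 14.6%, which with n = 2 is no check of stability. The ratio of unique genes to copies (43.9 ± 1.91) was 246.8 without Mirlet7f-2, an alternative chosen after seeing the data. The first 18 bases left the same genes in each class, so that alternative could not change the ratio. Of the replicate calls, 3 genes were higher in replicate 1 with total counts, against 0 with TMM, and the log2 ratio of Mirlet7b reversed, at -0.073, against 0.06 with TMM. With a 1.5-fold minimum 0 genes were called in either direction. DESeq2 size factors, both other count minimums and unstranded counts gave 7 and 0. No paired analysis was possible because there is 1 group, and no replicate comparison can leave out a library. The let-7a and let-7c rows have the fewest counts of the 10 genes, 358 to 1038, and reads shared by their identical loci are in no gene count.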
